A study of Mus musculus with 4 samples.

Results

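The genes described here belong to the programme that ATF4, a transcription factor of the integrated stress response, is known to drive, together with the cytosolic tRNA synthetases, many of which are among its targets. They are 43 genes chosen by name: ATF4 with its partners and stress effectors (12 genes), enzymes of amino acid and one-carbon metabolism (10), amino acid transporters (7) and synthetases (14). Of the 43, 42 were measured among 22180 genes in all, each through probe sets that carry its symbol alone, with the brightest on average kept. Methionyl-tRNA synthetase, Mars in the list of members, is annotated on the array as Mars1. Aars, alanyl-tRNA synthetase, was not analysed here, because its symbol shares a probe set with another gene. Stc2 was the only member dimmer than the median gene.

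The cells were Beta-TC-6, an established mouse line of insulin-producing pancreatic beta cells, grown in medium with 25 mM glucose and 15% serum. There were 2 siNF90 arrays, from cells that received a lipid-delivered mixture of siRNA duplexes against NF90, a double-stranded RNA-binding protein, and 2 siNTC arrays, from cells that received a negative control siRNA. Both groups were therefore transfected, and no untransfected cells were analysed here. RNA was hybridised to Affymetrix Mouse Gene 2.1 ST arrays, and values are log2 expression per probe set. Whether replicate arrays stem from separate cultures is not in the labels, so p-values reflect the spread of these 4 arrays alone, and that spread may be technical.

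When amino acids run short, unfolded protein builds up, haem is lacking or double-stranded RNA appears, one of a set of kinases phosphorylates the initiation factor eIF2. General translation then slows, while translation of the Atf4 message increases. ATF4 activates genes for amino acid synthesis, uptake and tRNA charging, and under lasting stress the factor CHOP. In beta cells, which make large amounts of secreted protein, this branch is known for its role in adaptation to, and death from, endoplasmic reticulum stress. Because ATF4 is controlled largely in translation, the level of its mRNA does not by itself report the amount of protein.

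As background to the results, array medians lay between 1.65 and 1.68, and the arrays of a group correlated at 0.992 for siNF90 and 0.993 for siNTC, across genes, which are not independent replicates. Arrays of different groups correlated at 0.990 to 0.991. The beta cell markers Ins2 (7.88 and 8.01 in siNF90, 7.98 and 8 in siNTC) and Pdx1 (6.83 and 7.03 in siNF90, 6.85 and 6.86 in siNTC) were bright on every array. Slc2a2, the glucose transporter of mouse beta cells, lay lower, and had 4.78 and 4.86 in siNF90, against 6 and 5.8 in siNTC (limma adjusted p = 0.342, and 0.0153 once the variance prior tracks the mean level), and Kcnj11 had a log2 difference of -0.45. Nkx6-1 had one of 0.45 and Mafa of 0.38. Over the 13 measured the differences split into 6 above 0 and 7 below. Summed log2 levels of 5 measured markers of other islet cells lay at 23.05 and 23.41 in siNF90, against 23.22 and 23.09 in siNTC. The sum covers genes that went opposite ways. Gcg at 0.21 and Irx2 at 0.30 had both siNF90 arrays higher, and Sst at -0.23 had both lower. Gcg was brighter than Ins2 on every array, with 8.88 and 8.78 in siNF90, against 8.50 and 8.75 in siNTC. Sst had 6.72 and 6.54 in siNF90, against 6.86 on both siNTC arrays. Of 7 exocrine and duct markers only Krt7, and of 7 stromal, endothelial and blood markers only Cd68, reached the median level of all genes. Cd68 was higher in siNF90, at 4.44 and 4.48 against 3.32 and 3.35 in siNTC, and the part of Cd68 and of the beta cell markers in the results below was not tested. NF90's own mRNA is not reported, and siNF90 is used throughout as the label gives it.

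In siNF90 cells the mRNA of Atf4 itself differed from control cells by 0.04 on the log2 scale, less than the gap of 0.09 between the siNF90 arrays though not that of 0.03 between the siNTC arrays, and the genes of its programme pointed both ways. Those that lay farthest below the control were Trib3, Vldlr, Cth, Slc38a2 and Slc1a4, by 1.23-fold to 1.79-fold. Cbs lay 1.24-fold higher, and the synthetases stayed within 1.18-fold of the control. In bulk RNA such as this, fewer cells that express a gene and less of its RNA per cell cannot be told apart. None of the 42 passed limma's test after Benjamini-Hochberg adjustment over all genes at a threshold of 0.05 (smallest adjusted p = 0.357, for Trib3), and 0% of all genes passed it. With a variance prior that follows a gene's level, 0.234% of all genes passed as higher and 0.221% as lower, and again none of the 42 did (smallest adjusted p = 0.082, for Slc38a2).

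Read without adjustment, 4 of the 42 were lower at an unadjusted p under 0.05 and 1 was higher, which is 9.52% and 2.38% of them. Among all genes, 4.41% were lower and 5.87% higher by the same rule. The count of lower members was 1 or 2 whenever an array was left out, and that of higher members 0 or 1. With the prior that follows the level, 7 of the 42 were lower (16.7%) and 3 higher (7.14%), beside 5.46% and 6.78% of all genes. In 16 of the 42 (38.1%) both siNF90 arrays were dimmer than either siNTC array, a pattern seen in 17.9% of all genes. In 7 (16.7%) both were brighter, as in 21.9% of all genes, and in 19 the groups overlapped. Most members are well expressed. Among the 11092 genes no dimmer than the median gene, both siNF90 arrays were dimmer in 21.6% and brighter in 26.2%. The median log2 difference was -0.05 over the 42, with 29 below 0 and 13 above. Over all 22180 genes it was 0.02, with 10153 below 0 and 11773 above. The plot of differences by role gives each gene.

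**Figure D1:**
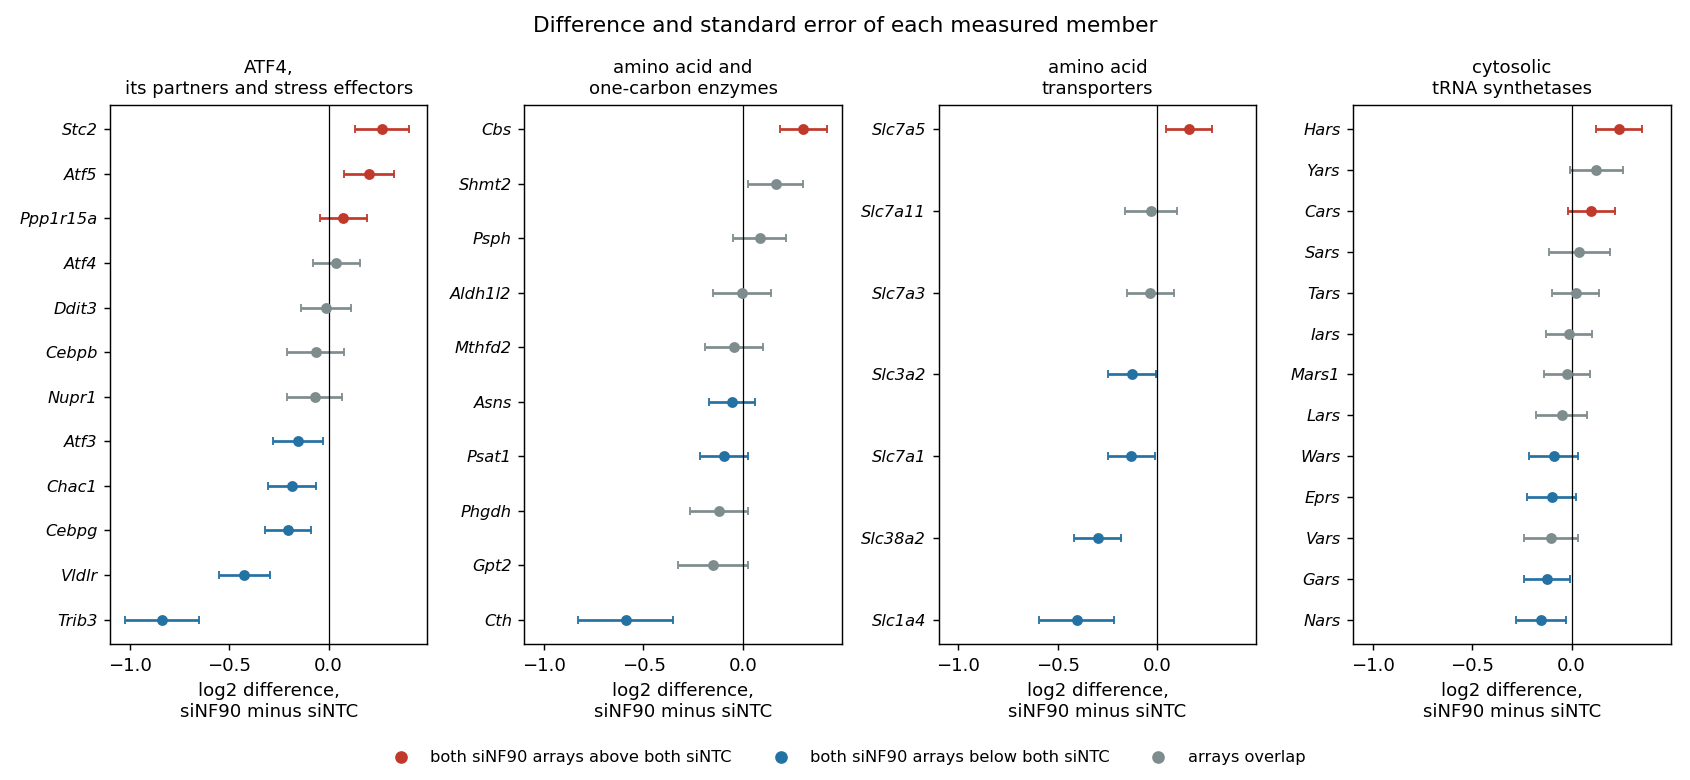
Log2 difference (siNF90 minus siNTC) of each of the 42 measured genes, in 4 panels by role. Bars are the standard error of limma's fit, which shares variance across genes and is not a gene's own replicate spread. Red points mark genes with both siNF90 arrays above both siNTC arrays (7), blue points both below (16) and grey points overlapping groups (19); Trib3 lies farthest from 0, at -0.84.

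The transcription factors gave small differences. Atf4 had 7.58 and 7.49 in siNF90, against 7.48 and 7.51 in siNTC, a log2 difference of 0.04 ± 0.12 (difference and standard error, as below). Its groups overlapped, and without the first siNF90 array the difference was -0.005. Atf5, a related factor that is also controlled in translation, had 5.62 and 5.45 in siNF90, against 5.33 on both siNTC arrays. Both siNF90 arrays of Atf5 were the higher ones (0.21 ± 0.13). Ddit3, which encodes CHOP, the factor of lasting stress, had 5.41 and 5.24 in siNF90, against 5.32 and 5.36 in siNTC. Its siNTC arrays fell between its siNF90 arrays. Atf3, a stress-induced repressor and activator of the same family, had 3.35 and 3.52 in siNF90, against 3.60 and 3.58 in siNTC (-0.16 ± 0.13). Cebpg, a partner of ATF4 in heterodimers, had 6.26 and 6.22 in siNF90, against 6.45 and 6.44 in siNTC. That is 1.15-fold lower, and here the gap between groups was larger than the gap within either. Cebpb, another partner, had 2.51 and 2.22 in siNF90, against 2.41 and 2.45 in siNTC, with overlapping groups.

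Trib3, a pseudokinase that ATF4 and CHOP induce and that is known to restrain both ATF4 and AKT, showed the largest difference of the 42. It had 2.93 and 2.43 in siNF90, against 3.49 and 3.55 in siNTC, which is 1.79-fold lower (-0.84 ± 0.19, limma adjusted p = 0.357). The siNF90 arrays differed from each other by 0.50, and both stood below both controls. Leaving out either siNF90 array or either siNTC array kept the difference between -1.09 and -0.59. Trib3 is expressed at a low level on these arrays, and the table has no measure of background against which such a level could be judged.

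Vldlr, the very low density lipoprotein receptor, which ATF4 is known to induce, had 6.65 and 6.55 in siNF90, against 7.11 and 6.94 in siNTC. It was 1.34-fold lower (-0.43 ± 0.13, limma adjusted p = 0.415), with the groups apart by more than the gap between replicate arrays. Chac1, which degrades glutathione and is a sensitive ATF4 target, had 3.92 and 4.02 in siNF90, against 4.18 and 4.13 in siNTC, 1.14-fold lower. Nupr1, a small chromatin-associated stress protein, had 4.65 and 4.50 in siNF90, against 4.75 and 4.54 in siNTC, and its groups overlapped. Ppp1r15a (GADD34), which directs the phosphatase that restores eIF2, had 2.67 and 2.68 in siNF90, against 2.55 and 2.65 in siNTC. Stc2, a secreted glycoprotein, had 1.64 and 1.59 in siNF90, against 1.22 and 1.47 in siNTC, all below every array's median. Both siNF90 arrays were the higher ones for Ppp1r15a and for Stc2. Of these 12 genes, 8 had a difference below 0 and 4 above, with a median of -0.07. That median was -0.12 when the first siNF90 array was left out and 0.04 when the second was.

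**Figure D2:**
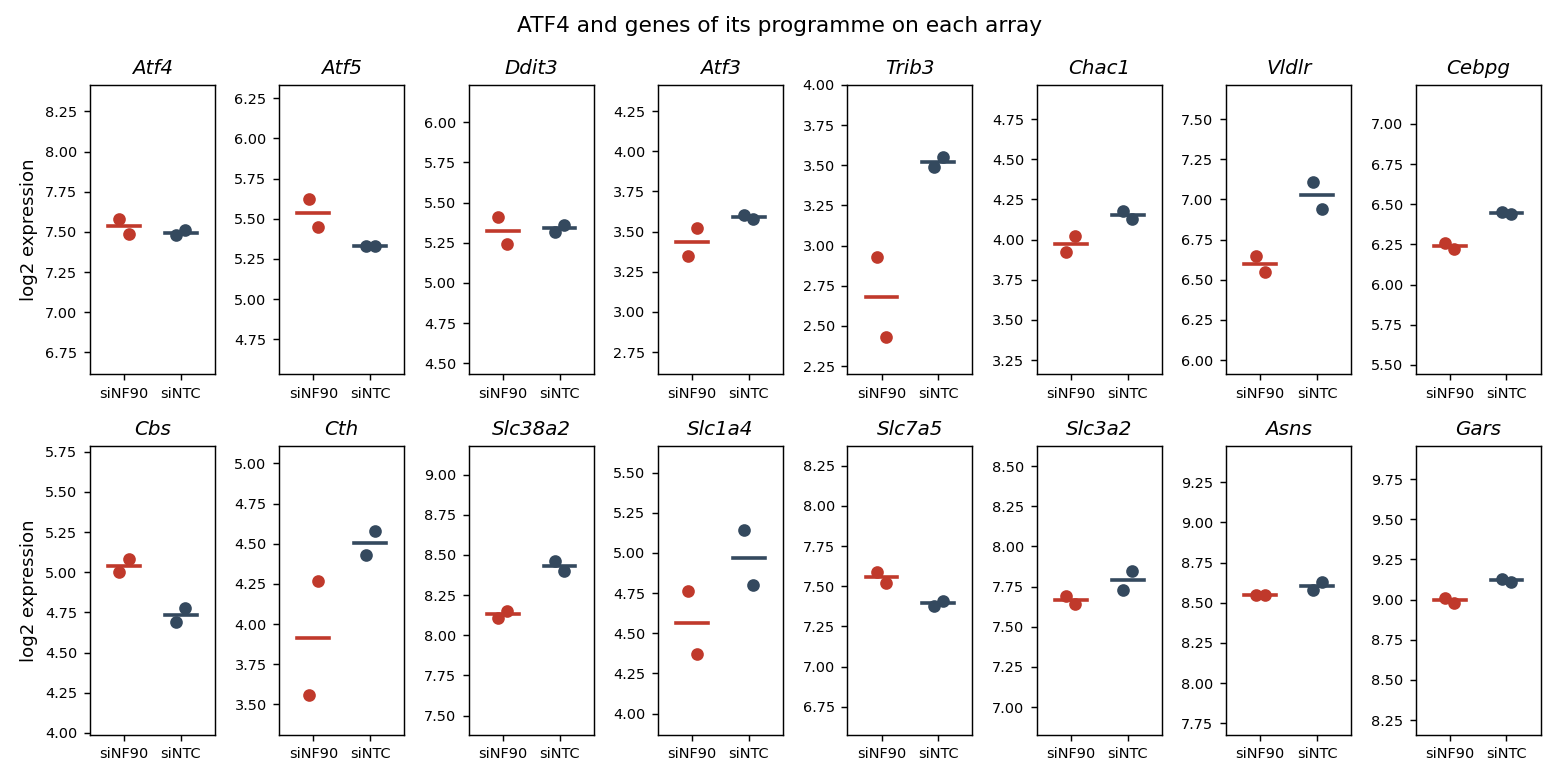
Log2 expression of 16 of the genes on each array (points, siNF90 in red left of siNTC in dark blue; horizontal lines are the means of 2 arrays), with every axis spanning the same log2 range. Atf4, Ddit3 and Asns are nearly level between groups, and Vldlr and Slc38a2 lie lower in siNF90. Trib3 and Cth lie lower with widely spaced siNF90 arrays, and Slc1a4 lies lower with widely spaced arrays in both groups.

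ATF4 binds DNA as a dimer with C/EBP proteins at a composite element whose core was searched here as TGATGNAA (N is any base) on both strands, where the other strand reads TTNCATCA. RefSeq promoter windows (assembly GRCm38.p6, from 250 bases before to 50 after a start) were matched for 33 of the 43 genes, in 37 windows. Of these genes 13 (39.4%) had at least 1 match, against 4.51% of the 27025 genes with a window and 3.97% of the 32851 windows. The 12 measured genes with a match were Trib3, Vldlr, Slc1a4, Atf3, Chac1, Nupr1, Asns, Slc7a11, Gars, Iars, Tars and Yars. Their differences ran from -0.84 to 0.13 with a median of -0.10, and both siNF90 arrays lay below both controls in 7 and above in 0, patterns seen in 17.9% and 21.9% of all genes. The 20 measured genes with a window and no match had differences from -0.30 to 0.31 and a median of -0.04, with 6 below and 4 above. A match describes letters in the window and is no evidence of binding, and an element farther away is not seen. The members were chosen by name around known ATF4 targets, so their high share of matches is no independent result. Members without a window are in neither set, among them Cth, which lay lower in siNF90, and Slc7a5, which lay higher. Over the 42 measured members both siNF90 arrays lay below both controls in 16 and above in 7, so some of each kind fall in neither set. The difference between genes with and without a match was not tested.

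Printed next are 80-base stretches of 6 of these promoters, each on the gene's own strand with the matched letters in capitals and everything else in lower case. Trib3, Vldlr and Slc1a4 are shown as the genes with a match that lay lowest in siNF90, and Asns, Gars and Tars as genes with a match whose levels differed little. Positions are counted from the start site. The stretches are chr2:152344031-152344110 (minus strand, match from 15) for Trib3, chr19:27216784-27216863 (plus, from -200) for Vldlr, chr11:20332684-20332763 (minus, from -4) for Slc1a4, chr6:7693189-7693268 (minus, from -23) for Asns, chr6:55037935-55038014 (plus, from -30) for Gars and chr15:11399630-11399709 (minus, from -15) for Tars.
Trib3: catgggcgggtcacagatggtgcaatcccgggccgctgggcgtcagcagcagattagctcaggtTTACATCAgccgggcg
Vldlr: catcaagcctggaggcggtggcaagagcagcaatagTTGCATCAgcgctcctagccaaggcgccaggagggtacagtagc
Slc1a4: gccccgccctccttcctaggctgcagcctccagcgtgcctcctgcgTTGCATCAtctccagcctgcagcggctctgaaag
Asns: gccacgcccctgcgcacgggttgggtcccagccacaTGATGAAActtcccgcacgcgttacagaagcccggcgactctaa
Gars: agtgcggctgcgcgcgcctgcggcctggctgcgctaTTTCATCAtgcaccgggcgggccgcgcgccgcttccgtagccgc
Tars: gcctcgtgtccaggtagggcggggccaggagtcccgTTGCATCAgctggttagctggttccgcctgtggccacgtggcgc

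Vldlr, Slc1a4 and Tars carry the same 8 letters, TTGCATCA, at different distances from the start, and their differences were -0.43, -0.41 and 0.02. Trib3 carries TTACATCA just inside the transcript, Gars TTTCATCA, and Asns TGATGAAA in the sense orientation.

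Among the enzymes, Asns, asparagine synthetase and a standard reporter of amino acid shortage, was close to level. It had 8.55 on both siNF90 arrays, against 8.58 and 8.63 in siNTC (-0.06 ± 0.12, 1.04-fold lower). The serine pathway gave Phgdh, its first enzyme, at 3.50 and 3.27 in siNF90, against 3.41 and 3.60 in siNTC. Psat1, the next enzyme, had 6.83 and 6.75 in siNF90, against 6.91 and 6.86 in siNTC. Psph, the last, had 5.09 and 4.89 in siNF90, against 4.85 and 4.96 in siNTC. Of the 3 only Psat1 had groups that did not overlap, and it was 1.07-fold lower.

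Shmt2, which moves a carbon unit from serine to folate in mitochondria, had 6.69 and 6.56 in siNF90, against 6.35 and 6.57 in siNTC. Mthfd2, the next mitochondrial folate enzyme, had 7.09 and 6.85 in siNF90, against 6.92 and 7.11 in siNTC. Aldh1l2, which oxidises mitochondrial formyl-folate, had 6.23 and 6.02 in siNF90, against 6.01 and 6.25 in siNTC. Gpt2, the mitochondrial alanine transaminase, had 5.05 and 4.74 in siNF90, against 5.22 and 4.87 in siNTC. In all 4 genes the arrays of the groups overlapped, and the differences ran from -0.15 (Gpt2) to 0.17 (Shmt2).

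The exceptions among the enzymes were the pair of the transsulfuration route, which turns homocysteine into cysteine. Cbs, which forms cystathionine, had 5 and 5.08 in siNF90, against 4.69 and 4.78 in siNTC, 1.24-fold higher (0.31 ± 0.12, limma adjusted p = 0.480). Cth, which splits cystathionine to release cysteine, had 3.56 and 4.27 in siNF90, against 4.43 and 4.58 in siNTC, 1.51-fold lower (-0.59 ± 0.24, limma adjusted p = 0.485). For both genes the groups did not overlap, in opposite directions. The size for Cth rested on the first siNF90 array: the difference was -0.24 without it and -0.95 without the second. Taken within each array, Cbs minus Cth was 1.44 and 0.81 in siNF90, against 0.26 and 0.20 in siNTC, a log2 difference of 0.90 between the groups. This pair was chosen after its values were seen, and 2 arrays against 2 cannot give an exact two-sided permutation p below 0.333. Of the 10 enzymes, 7 had a difference below 0 and 3 above, with a median of -0.05. Left out in turn, the first siNF90 array gave a median of -0.12, the second 0.04, the first siNTC array -0.08 and the second 0.01.

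The amino acid transporters had 6 of 7 differences below 0, and their median of -0.13 lay between -0.14 and -0.10 when each array was left out. Slc38a2 (SNAT2), the sodium-coupled carrier of small neutral amino acids that is induced by amino acid shortage, had 8.11 and 8.15 in siNF90, against 8.46 and 8.40 in siNTC. It was 1.23-fold lower (-0.30 ± 0.12, limma adjusted p = 0.477), with replicates no more than 0.06 apart and the groups well separated. Slc1a4 (ASCT1), which carries serine, alanine and threonine, had 4.76 and 4.37 in siNF90, against 5.14 and 4.80 in siNTC. That is 1.32-fold lower (-0.41 ± 0.19, limma adjusted p = 0.535). The replicates of Slc1a4 were 0.39 and 0.34 apart, nearly the size of the difference, which shrank to -0.21 when the second siNF90 array was dropped and to -0.24 when the first siNTC array was.

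Slc7a1 (CAT1), a carrier of arginine and lysine, had 5.89 and 5.87 in siNF90, against 6.04 and 5.98 in siNTC, 1.09-fold lower. Slc7a3 (CAT3), a second cationic amino acid carrier, had 5.19 and 5.23 in siNF90, against 5.20 and 5.29 in siNTC, and its groups overlapped. Slc7a11 (xCT), the cystine-glutamate exchanger, had 2.59 and 2.58 in siNF90, against 2.72 and 2.51 in siNTC. Its other, dimmer probe set gave 0.93 and 0.70 in siNF90, against 0.70 and 0.54 in siNTC, below every array's median. Neither probe set of Slc7a11 therefore showed groups apart in a downward direction.

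Slc7a5 (LAT1), the carrier of leucine and other large neutral amino acids, reaches the cell surface bound to the heavy chain Slc3a2 (CD98), which it shares with Slc7a11. Slc7a5 had 7.59 and 7.52 in siNF90, against 7.38 and 7.41 in siNTC (0.16 ± 0.12). Slc3a2 had 7.69 and 7.64 in siNF90, against 7.73 and 7.85 in siNTC (-0.13 ± 0.12). The light chain lay higher on both siNF90 arrays and the heavy chain lower. Within each array Slc7a5 minus Slc3a2 was -0.10 and -0.12 in siNF90, against -0.35 and -0.44 in siNTC, a log2 difference of 0.29 between the groups for a pair also chosen after its values were seen.

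The tRNA synthetases, which attach each amino acid to its tRNA, showed the narrowest range of the 4 roles, from -0.16 (Nars) to 0.24 (Hars). Of the 13 measured, 5 had a difference above 0 and 8 below, with a median of -0.03, which ran from -0.05 without the first siNTC array to -0.005 without the second siNF90 array. None was past an unadjusted p of 0.05 in the fit without a trend, and with the prior that follows the level Hars was, as higher, and Gars, as lower. Hars (histidine) had 6.23 and 6.25 in siNF90, against 5.97 and 6.03 in siNTC, 1.18-fold higher (0.24 ± 0.12, limma adjusted p = 0.549). Gars (glycine) had 9.01 and 8.98 in siNF90, against 9.13 and 9.11 in siNTC, 1.09-fold lower. Nars (asparagine) had 7.39 and 7.40 in siNF90, against 7.64 and 7.46 in siNTC, 1.11-fold lower. Cars (cysteine) had 6.28 and 6.21 in siNF90, against 6.16 and 6.13 in siNTC, 1.07-fold higher. Replicates of Gars and Hars were tight, at most 0.06 apart, so the groups separated on small differences.

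Eprs, the bifunctional glutamate and proline enzyme, had 7.22 and 7.37 in siNF90, against 7.38 and 7.41 in siNTC. Wars (tryptophan) had 6.66 and 6.81 in siNF90, against 6.83 and 6.82 in siNTC. Yars (tyrosine) had 5.61 and 5.54 in siNF90, against 5.34 and 5.56 in siNTC. Eprs and Wars were lower on both siNF90 arrays by margins of 0.01 in the nearest pair of arrays, and Yars overlapped. The other 6 synthetases, Iars (isoleucine), Lars (leucine), Mars1 (methionine), Sars (serine), Tars (threonine) and Vars (valine), all had overlapping groups. Their differences ran from -0.11 for Vars to 0.04 for Sars. Sars had 7.96 and 8.25 in siNF90, against 7.97 and 8.16 in siNTC, so its replicates were farther apart than its groups.

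Genes next to this programme were read for comparison, from lists chosen for their known roles. The eIF2 kinases did not all point one way. Eif2ak2 (PKR), the kinase that double-stranded RNA activates, had 5.30 and 5.42 in siNF90, against 5.69 on both siNTC arrays (-0.33 ± 0.12, limma adjusted p = 0.455). Eif2ak3 (PERK), the kinase of endoplasmic reticulum stress, had 5.71 and 5.79 in siNF90, against 5.38 and 5.56 in siNTC (0.28 ± 0.13, limma adjusted p = 0.533). Eif2b2, a subunit of the exchange factor that recharges eIF2, had 4.52 on both siNF90 arrays, against 4.27 on both siNTC arrays. Of 13 measured genes of the eIF2 cycle, 8 had a difference above 0 and 5 below, with a median of 0.07. At an unadjusted p under 0.05, 1 was lower and 0 higher, beside 4.41% and 5.87% of all genes.

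Further genes known as ATF4 targets had more differences above 0 than below. Of 18 measured, 13 had a difference above 0 and 5 below, with a median of 0.14. In 9 of the 18 both siNF90 arrays were brighter than either siNTC array, and in 2 both were dimmer. Those patterns were seen in 21.9% and 17.9% of all genes. At an unadjusted p under 0.05, 3 were higher and 0 lower, where 5.87% and 4.41% of all genes were. Jdp2, a repressor that pairs with ATF3 and JUN, had 2.23 and 2.02 in siNF90, against 1.37 and 1.57 in siNTC, where both controls lay below every array's median. Ddit4 (REDD1), an inhibitor of mTORC1, had 2.99 and 2.68 in siNF90, against 2.42 and 2.39 in siNTC. Tnfrsf10b, a death receptor, had 2.04 and 2.09 in siNF90, against 1.59 and 1.8 in siNTC. None of these 3 passed over all genes (limma adjusted p from 0.357 to 0.446), and Ddit4 and Tnfrsf10b are also known as p53 targets. The median thus lay below 0 over the members and above 0 over these genes, and the difference between the lists was not tested.

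Folding genes of the endoplasmic reticulum, which the ATF6 and XBP1 branches control, had 13 of 21 differences above 0 and 7 below, with a median of 0.06. By the unadjusted rule 2 were higher and 2 lower, beside 5.87% and 4.41% of all genes. Sdf2l1, a chaperone component, had 6.37 and 6.49 in siNF90, against 6 and 6.01 in siNTC. Hyou1, a chaperone of the HSP70 type, had 7.97 and 7.99 in siNF90, against 7.67 and 7.64 in siNTC. Edem1, which marks misfolded glycoproteins for degradation, had 6.43 and 6.42 in siNF90, against 6.84 and 6.80 in siNTC. The other gene below the threshold, Atf6, which encodes the sensor of that name and is named after its value was seen, had 7.48 and 7.51 in siNF90, against 7.91 and 7.75 in siNTC. Sdf2l1 and Hyou1 lay higher and Edem1 and Atf6 lower, with no overlap between groups and none past adjustment (limma adjusted p from 0.409 to 0.459).

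Among the 7 measured genes of the remaining cytosolic synthetases and their scaffold, 2 had a difference above 0 and 5 below, and the median was -0.04. Qars (glutamine) had 4.85 and 4.81 in siNF90, against 5.17 and 5.02 in siNTC. Kars (lysine) had 6.98 and 7.15 in siNF90, against 6.87 and 6.85 in siNTC. The groups of Farsb (phenylalanine) overlapped. Of 16 mitochondrial synthetases, 7 had a difference above 0 and 9 below, with a median of -0.03. At an unadjusted p under 0.05, 2 were lower and 0 higher, beside 4.41% and 5.87% of all genes. Hars2 had 2.96 and 2.60 in siNF90, against 3.37 and 3.33 in siNTC (-0.57 ± 0.16). Tars2 had 3.97 and 3.85 in siNF90, against 4.23 and 4.35 in siNTC (-0.38 ± 0.13). Fars2 had 4.57 and 4.65 in siNF90, against 4.85 and 4.86 in siNTC (-0.25 ± 0.12). The cytosolic Hars thus lay higher and the mitochondrial Hars2 lower in siNF90, neither past adjustment (limma adjusted p = 0.549 for Hars and 0.403 for Hars2). This pair too was set side by side after its values were seen.

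**Figure D3:**
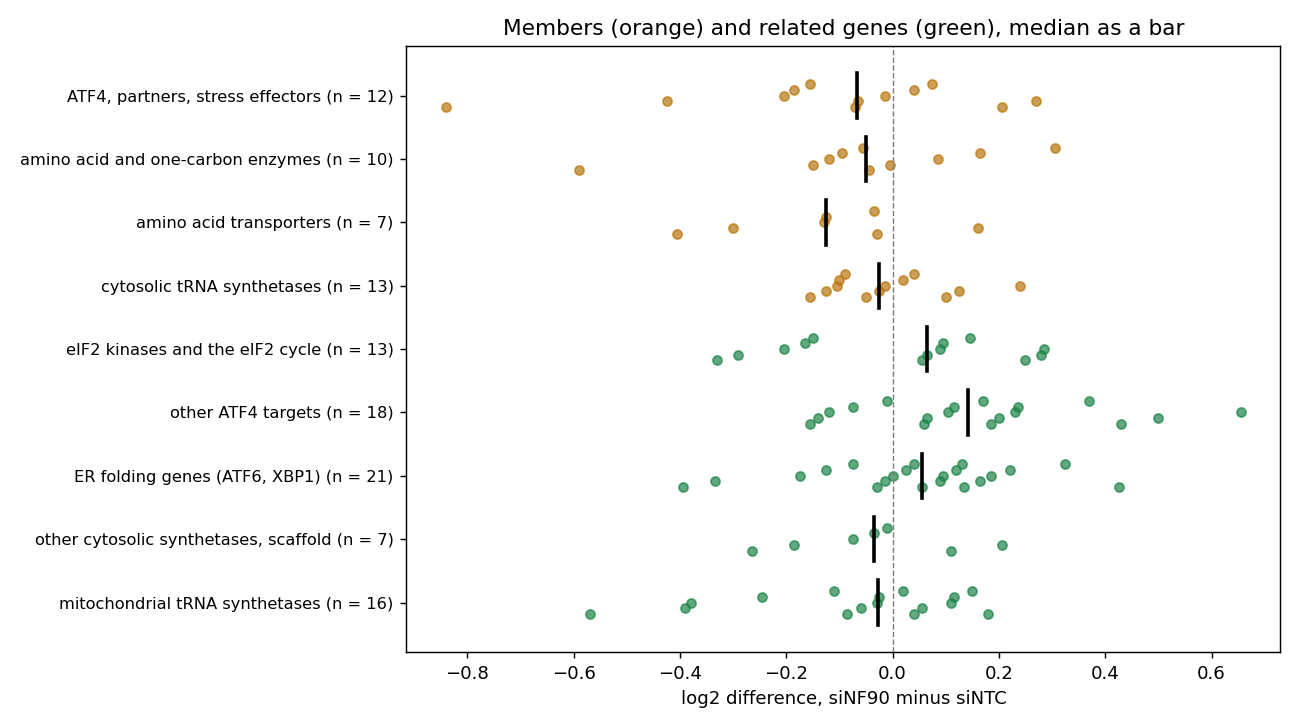
Log2 difference (siNF90 minus siNTC) of each measured gene, in rows by list, for the 4 roles (orange) and for the related lists (green), with the median of each list as a black bar. The medians run from -0.13 (amino acid transporters) to 0.14 (other ATF4 targets), and the tRNA synthetases span the narrowest range of the 4 roles.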

How the data were processed

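The authors deposited 1 table of log2 values for 41345 probe sets on 4 arrays. Transcriptome Analysis Console was used, per the submitters' processing notes. How background was corrected, how arrays were normalized, which version was run and the log base are not stated in what was at hand; base 2 was inferred from the range of values, which have 2 decimals. RNA input was 250 ng per the labels' protocols. There is no measure of background, so a dim gene cannot be called absent, and having 4 arrays limits the precision.

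Names came from the platform annotation, in which 23521 probe sets had 1 gene symbol, 1814 several and 16010 none here. Those with 1 symbol gave 22180 genes, of which 21994 matched a RefSeq gene identifier. For 1082 genes with several probe sets, the brightest on average was kept. The difference siNF90 minus siNTC was fitted over all genes by limma 3.58.1 in R 4.3.3 (lmFit, then eBayes with no trend; 2 residual and 3.92 prior degrees of freedom). Adjustment followed Benjamini-Hochberg over all genes, two-sided. Errors of differences are standard errors of that fit, which pulls each gene's variance toward a value common to all genes. They are therefore not a gene's own replicate spread. Asns, with standard deviations of 0 in siNF90 and 0.035 in siNTC, had an error of 0.116. The script was tested on simulated data.

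The members and lists were chosen with earlier results of these data known. Each array's value is given for Atf4 and, in each role, for members with an unadjusted p under 0.05 or else the 4 with the smallest p. The remaining members were added so that all 42 are accounted for. Up to 3 genes per related list are named, by smallest p, and Atf6 was added after its value was seen. Alternatives were the replicate block, a trend or robust prior, 2 other normalizations (quantile, array medians), dropping dim genes, averaging probe sets and leaving out each array.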

Additional observations from a re-analysis of the deposited data

How the results depend on the processing

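None of the 42 members passed the adjusted threshold under any of the 11 alternatives (smallest adjusted p = 0.082), while with a trend in the prior 101 of all genes did, against 0 in the reported fit and in the other 10. Members lower at an unadjusted p under 0.05 numbered 4 as reported, 7 with the trend, 2 with quantile normalization (without Cth and Slc38a2) and 1 to 2 without 1 array. Members higher numbered 1 as reported, 3 with the trend, 0 with the replicate number as a block, and 0 to 1 without 1 array. The labels do not say that a number marks a shared culture or day. Deviations of same-numbered arrays correlated at -0.02 across genes, which does not settle whether they share a culture or day. The block gave 4 lower members, 0 called members and 0 called genes, with 1 residual degree of freedom. Leaving out an array leaves 1 in a group, assumed to vary like the other group.

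Role medians kept their sign under the alternatives that used all arrays. Without 1 array that of ATF4, its partners and effectors ran from -0.12 to 0.04 and that of the synthetases from -0.05 to -0.005. Of 42 members, 28 never reversed direction, among them Iars, whose difference was 0 with arrays centred on their median and without the second siNTC array. The other 14 have small differences. Their ranges without 1 array were -0.005 to 0.085 (Atf4), -0.10 to 0.07 (Ddit3), -0.21 to 0.08 (Cebpb), -0.175 to 0.035 (Nupr1), -0.015 to 0.185 (Psph), -0.165 to 0.075 (Mthfd2), -0.125 to 0.115 (Aldh1l2), -0.325 to 0.025 (Gpt2), -0.135 to 0.075 (Slc7a11), -0.08 to 0.01 (Slc7a3), -0.15 to 0.05 (Lars), -0.105 to 0.185 (Sars), -0.005 to 0.045 (Tars) and -0.23 to 0.02 (Vars). Aldh1l2 also turned to 0.0038 with quantile normalization and to 0.01 with centring, and Slc7a11 to 0.038 with quantile normalization and to 0.083 with the mean of its probe sets. The cause was not tested.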
